A study of Homo sapiens with 2 samples.

Results

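Neighbouring nascent strand intervals of U2OS cells usually fall in the same or in the adjacent replication timing class, and the intervals described here are the exceptions, where the class changes abruptly. The 6 deposited timing lists (very early, early, mid early, mid late, late and very late) were pooled and sorted by position, and a pair of neighbours was called a jump when its classes differed by 2 or more steps in that order. Chromosomes 1 to 22 and X held 161747 neighbouring pairs. Of these 702 were jumps (0.434%), and they involved 1371 of 161770 intervals (0.848%). They were compared with 17869 pairs that differ by a single step, called one-step pairs, and, for values of single intervals, with the 32130 intervals of one-step pairs that take part in no jump. The classes chose the members, so which classes meet at a jump is given as a description. The tests concern distances, widths, enrichments and surroundings, whose values the choice did not use. Neighbours were defined by position, and how the classes follow position is unknown, so these measures may not be independent of the choice.

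The material was U2OS, an osteosarcoma cell line (wild type per the labels), arrested at the entry to S phase by a double thymidine block and collected 2 hours after release from it. The 2 libraries form 1 group with no unsynchronised or undigested control analysed here, and no label says that they came from separate cultures. Nascent strand sequencing isolates short new DNA near replication start sites, because the RNA primer at its end protects it from lambda exonuclease. The files hold 1 intersected set of intervals for both libraries, so the errors below are spreads over chromosomes within that set and not between cultures. The read depth behind an interval is unknown. How the timing classes were assigned, and from which timing data, is not known from the sources.

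Eukaryotic chromosomes start replication at many origins, which are licensed in G1 and fire in an order known as the replication timing programme. Stretches of the genome whose origins fire at about the same time form early and late domains. Between an early and a late domain lies a timing transition region, which is known for few active origins and is copied largely by forks that travel inward from the earlier side. An abrupt change of class between neighbouring nascent strand intervals is one way in which such a region could appear in interval lists. Whether the jumps lie in such regions was not tested. The text below describes what lies on either side of these changes.

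Jumps of exactly 2 steps made up 661 of the 702 (94.2%), 3 steps 36, 4 steps 4 and 5 steps 1. Very early beside mid early was the most common pairing, with 252 jumps (35.9%). Early beside mid late followed with 213 (30.3%), then mid late beside very late with 127 (18.1%) and mid early beside late with 69 (9.83%). Of the 41 jumps of 3 or more steps, 26 had a very early member, and 22 of these joined very early to mid late. Members were therefore not spread over the classes as all intervals are. Very late intervals made up 9.48% of jump members, 2.67% of intervals of one-step pairs and 2.16% of all intervals, and 3.73% of all very late intervals bordered a jump. Early intervals made up 15.5% of jump members, 28.1% of intervals of one-step pairs and 25.9% of all intervals, and 0.509% of them bordered a jump. These shares describe the members, whose classes were used to choose them. The class became later with increasing coordinate in 351 jumps and earlier in the other 351.

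No jump stepped over an interval missing from the lists. The interval names carry consecutive numbers along the genome, and in 0 of 702 jumps was a number left out between the 2 members. The same count was 58 of 17869 one-step pairs and 73 of 143176 same-class pairs. Omitted numbers were thus rare in every kind of pair, and their absence is not particular to jumps. The 2 members of each jump were thus direct neighbours in the authors' numbering.

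The members of a jump lay far apart. The distance from the end of one member to the start of the other had a median of 131 kb over the 702 jumps (quartiles 75.7 and 248 kb), against 17.8 kb over one-step pairs (quartiles 5.33 and 53.9 kb). Neighbours of the same class were 2.36 kb apart. On each chromosome the median distance was larger for jumps, at 132140 ± 41583 bp in jumps and 22450 ± 11285 bp in one-step pairs (mean of chromosome medians ± SD, n = 21 chromosomes with at least 10 pairs of both kinds). The ratio was 6.26 (95% interval 5.24 to 7.48 over chromosomes), and 21 of 21 chromosomes shared its direction. The two-sided permutation test, which flips the signs of the chromosomes' differences at random, gave an adjusted p of 3e-05, from the smallest p that 100000 resamples can give (1e-05). The 2 kinds of pair overlapped all the same, since the shortest jump spanned 15.9 kb and 10% of one-step pairs were more than 128 kb apart. Distances over 100 kb separated 61.8% of jumps, 13.6% of one-step pairs and 3.37% of all neighbouring pairs.

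**Figure D1:**
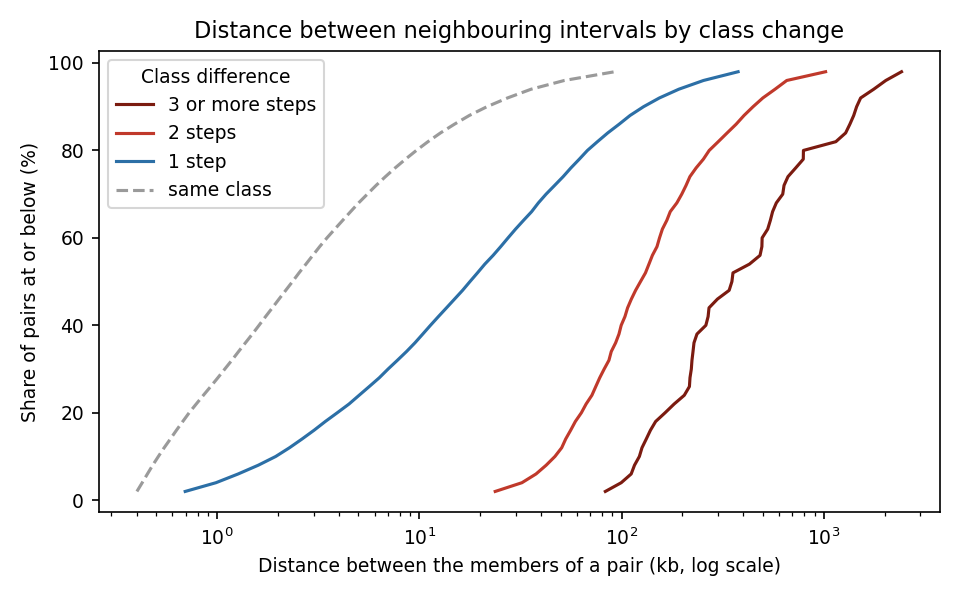
Distance between the members of neighbouring pairs in kb (log scale, x axis) against the cumulative share of pairs in percent (y axis), by class difference. The curve for 2 steps lies to the right of that for 1 step over the plotted percentiles (2 to 98), with medians of 124 kb and 17.8 kb, and the curve for 3 or more steps lies farther right, with a median of 351 kb.

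Larger jumps were also longer. The smallest distance seen was 292 bp for one-step pairs, 15.9 kb for jumps of 2 steps, 78.5 kb for jumps of 3 steps and 495 kb for jumps of 4 or more. The medians rose in the same order, with 17.8 kb for 1 step, 124 kb for 2, 270.4 kb for 3 and 1394 kb for the 5 jumps of 4 or more steps. The number of pairs falls steeply along this series, so the smallest distances are those of sets of very different size. By pairing, jumps between very early and mid early were the shortest (median 88.7 kb), followed by early to mid late (110.3 kb), mid early to late (212 kb) and mid late to very late (246 kb). The one-step pairs lengthened towards the late classes as well, from 13.97 kb between very early and early to 83.3 kb between late and very late.

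The share of pairs that jump grew with the distance between neighbours. Among 121955 pairs up to 10 kb apart there was no jump, which allows a share of up to 0.00246% (3 counts of the total) or, by the exact 95% binomial interval used below, 0.00302%. From 10 to 30 kb 23 of 21985 pairs jumped (0.105%, exact 95% binomial interval 0.0663% to 0.157%). From 30 to 100 kb the share was 1.98% (245 of 12353, 1.74% to 2.24%) and from 100 to 300 kb 6.84% (292 of 4272, 6.10% to 7.63%). From 300 to 1000 kb it was 11.1% (119 of 1069, 9.31% to 13.2%), and beyond 1000 kb 20.4% (23 of 113, 13.4% to 29.0%). One-step changes levelled off over the same range, at 5.45%, 20.3%, 35.1%, 44.1%, 46.2% and 46.9% of pairs. Even beyond 1000 kb, 37 of 113 neighbours (32.7%) shared a class. The binomial intervals cover counting error and treat pairs as independent, which neighbours may not be.

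**Figure D2:**
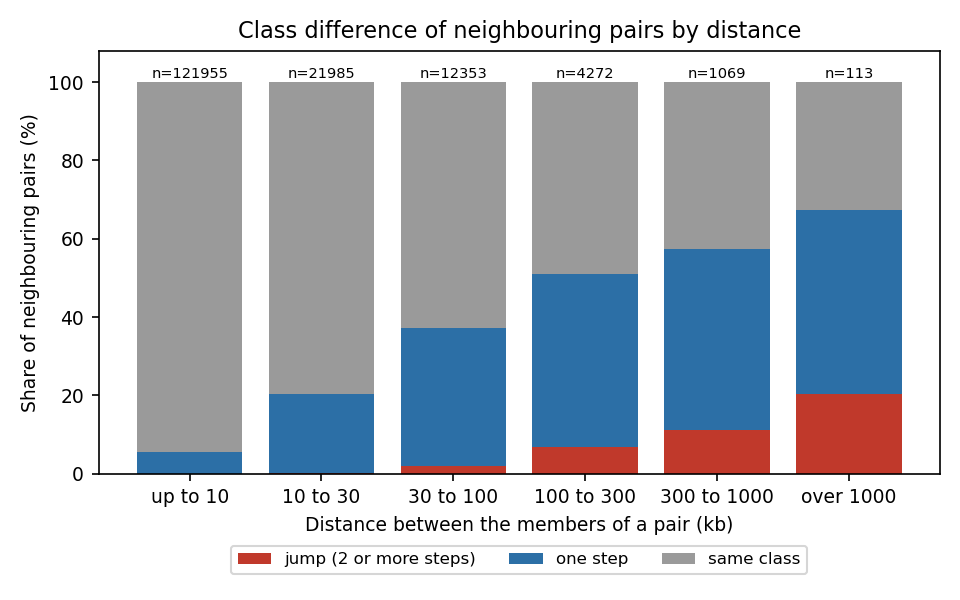
Share of neighbouring pairs (y axis, percent) that jump, differ by one step or share a class, for 6 ranges of the distance between members in kb (x axis), with the number of pairs above each bar. The jump share grows from 0 of 121955 pairs up to 10 kb to 23 of 113 pairs beyond 1000 kb.

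Replicate 1 peaks that did not enter the shared set lay inside most of these distances. The peaks of replicate 1 are numbered along the genome, so a gap in the numbers between the 2 members counts peaks that replicate 1 had there and that overlap no named interval. At least 1 number was skipped in 496 of 699 jumps (71.0%), against 8357 of 17792 one-step pairs (47.0%). A jump skipped a mean of 1.61 peaks and a one-step pair 0.807. Put as retention, the share of spanned peak numbers that belong to a named interval, this was 40.4 ± 6.47% in jumps and 55.0 ± 2.65% in one-step pairs (mean ± SD, n = 21 chromosomes). Retention was lower in jumps on 21 of 21 chromosomes, with a mean difference of −14.6 percentage points (sign-flip permutation test, adjusted p = 3e-05). A longer distance leaves room for more skipped numbers, so retention is not independent of the distance between the members. Per length the order was the other way, with 0.678 skipped peaks per 100 kb in jumps and 1.40 per 100 kb in one-step pairs. In the other 203 jumps (29.0%) replicate 1 had no further numbered peak between the members. The class of a skipped peak is not given, so whether it would fill the step was not tested.

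Members of jumps were narrow. Their median width was 351 bp (quartiles 215 and 652 bp), against 462 bp in intervals of one-step pairs (quartiles 253 and 860 bp) and 558 bp in all intervals. Over chromosomes the median was 363 ± 63.5 bp at jumps and 457 ± 65.6 bp at one-step pairs (mean over chromosomes ± SD, n = 22). The ratio was 0.790 (95% interval 0.729 to 0.858), with narrower jump members on 20 of 22 (sign-flip permutation test, adjusted p = 6e-05). Broad intervals were rare among them. Of 1371 jump members 5 were 3 kb or wider (0.365%), against 2.68% of the intervals of one-step pairs and 3.94% of all 161770 intervals.

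The peaks under jump members were also somewhat weaker. The deposited fold enrichment of the replicate 1 peak had a median of 4.23 at jumps (quartiles 3.50 and 5.47), 4.53 at one-step pairs and 4.73 over all intervals. Over chromosomes it was 4.21 ± 0.253 at jumps and 4.53 ± 0.206 at one-step pairs (n = 22), a ratio of 0.929 (95% interval 0.896 to 0.963) that held on 19 of 22 chromosomes (sign-flip permutation test, adjusted p = 1.89e-04). The −log10 q of the same peaks was 3.94 ± 0.487 at jumps and 4.67 ± 0.428 at one-step pairs, lower on 21 of 22 chromosomes (ratio 0.839, permutation test, adjusted p = 3e-05). The share of an interval's bases that peaks of both libraries cover was 61.4 ± 4.32% at jumps and 60.1 ± 1.31% at one-step pairs, a difference of 1.29 points that did not pass the test (95% interval −0.685 to 3.26, higher on 16 of 22 chromosomes, permutation test, adjusted p = 0.281). An enrichment of at least 20-fold was found in 8 of 1371 jump members (0.584%), against 0.735% at one-step pairs and 0.899% of all intervals.

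Over all distances, the members of jumps had the smaller median width within every class. Very early intervals measured 410 bp at jumps and 494 bp at one-step pairs, and early ones 370 and 499 bp in the same order. Mid early intervals measured 381 bp at jumps and 494 bp at one-step pairs, and mid late ones 328.5 and 427 bp. The late and very late classes differed least, with 335 bp at jumps and 366 bp at one-step pairs in the late class and 295 and 352 bp in the very late class. Median enrichment was lower at jumps in 5 of the 6 classes. In the very late class it was 4.29 at jumps and 4.24 at one-step pairs. These medians over all chromosomes were not tested class by class. By distance of the pair, jump members had the larger median width from 10 to 300 kb. It was 464 against 423 bp from 10 to 30 kb, 387.5 against 365 bp to 100 kb and 364 against 321 bp to 300 kb. Beyond that it was smaller at jumps, with 297.5 against 324 bp to 1000 kb and 307.5 against 324.5 bp farther apart. These medians by distance were not tested.

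Over all distances, jumps lay in sparsely occupied surroundings on both sides. Within 500 kb of a jump member lay a median of 21 other intervals, against 88 around intervals of one-step pairs and 139 around all intervals. This window takes in all or part of the stretch between the members, so the count is not independent of their distance. Over chromosomes this was 31.3 ± 23.4 at jumps and 84.9 ± 42.4 at one-step pairs, lower on 22 of 22 chromosomes (ratio 0.349, sign-flip permutation test, adjusted p = 3e-05). The distance from a member to its other neighbour, away from the pair, had a median of 33.4 kb at jumps and 6.85 kb at one-step pairs. It was 4.07-fold longer at jumps over chromosomes and longer on 21 of 21 (permutation test over 3 comparisons added after the data were examined, adjusted p = 3e-05). Among pairs 50 to 200 kb apart this difference changed sign and did not pass, as given below. Of the jump members 472 (34.4%) were the only interval of their class in their run, against 9.89% at one-step pairs and 2.26% of all intervals. Among pairs 50 to 200 kb apart the contrast was smaller: such single intervals made up 40.9% of the earlier and 29.3% of the later members of jumps, against 31.3% of the earlier and 28.5% of the later members of one-step pairs. These shares depend on the classes that chose the members and are a description.

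**Figure D3:**
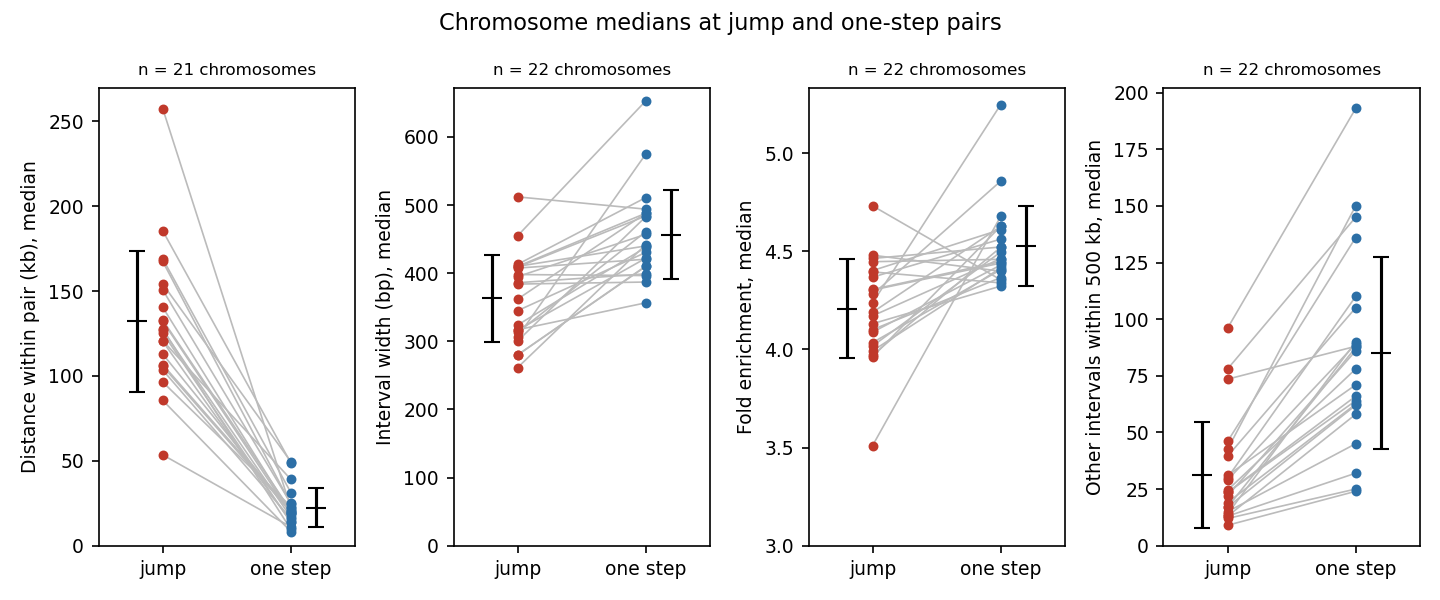
Chromosome medians at jump (left in each panel) and one-step pairs (right) for distance in kb, width in bp, fold enrichment and number of other intervals within 500 kb. Each point is a chromosome, grey lines join the same chromosome, and the bars beside the points give mean ± SD; the fold axis starts at 3. All 21 chromosomes were higher at jumps for distance, and all 22 were lower for the number of intervals nearby.

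Jumps were less frequent near the outermost intervals of chromosomes. Of the jumps 48 of 702 (6.84%) lay within 5 Mb of the first or last interval, against 13.8% of one-step pairs and 18.5% of all pairs. The share per chromosome was 6.79 ± 4.96% of jumps and 15.6 ± 8.38% of one-step pairs, lower on 19 of 21 chromosomes with a mean difference of −8.84 points (sign-flip permutation test, adjusted p = 6e-05). Among pairs at most 100 kb apart the difference was −4.02 points and did not pass (permutation test over 13 chromosomes, adjusted p = 0.0794).

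Among pairs of like distance the tested differences above, other than distance itself, did not pass the test. Failing to pass does not show that a difference is absent. When only pairs 50 to 200 kb apart were compared, a setting chosen after the data were examined, 399 jumps and 3762 one-step pairs remained. Width was then 356 ± 48.8 bp at jumps and 345 ± 23.4 bp at one-step pairs (mean ± SD over 21 chromosomes). The ratio was 1.02, with a 95% interval of 0.969 to 1.08 (permutation test, adjusted p = 0.569). That interval leaves out the ratio of 0.790 found over all distances. Fold enrichment was 4.14 ± 0.389 at jumps and 4.26 ± 0.145 at one-step pairs, a ratio of 0.967 with a 95% interval of 0.923 to 1.01, which still includes the ratio over all distances (permutation test, adjusted p = 0.303). The number of other intervals within 500 kb was 36.8 ± 21.4 at jumps and 34.5 ± 23.1 at one-step pairs (ratio 1.08, 95% interval 0.975 to 1.19, permutation test, adjusted p = 0.303). Retention was 45.0 ± 6.32% in jumps and 45.3 ± 2.98% in one-step pairs, a difference of −0.300 points (95% interval −4.66 to 4.06, n = 15, permutation test, adjusted p = 0.969). The −log10 q did not pass the permutation test either (ratio 0.912, 95% interval 0.823 to 1.01, adjusted p = 0.224). Nor did the share near the outermost intervals (1.47 points higher at jumps, permutation test, adjusted p = 0.426). The interval for −log10 q still includes its ratio of 0.839 over all distances. The distance to the outer neighbour was 29097 ± 14340 bp at jumps and 33198 ± 9554 bp at one-step pairs, shorter at jumps on 12 of 15 chromosomes. That ratio was 0.836, with a 95% interval of 0.689 to 1.01 (permutation test over the added comparisons, adjusted p = 0.07). The distance between the members was itself not fully evened out by this range, at 104094 ± 10825 bp in jumps and 87307 ± 6833 bp in one-step pairs (ratio 1.19, permutation test, adjusted p = 0.00432).

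**Figure D4:**
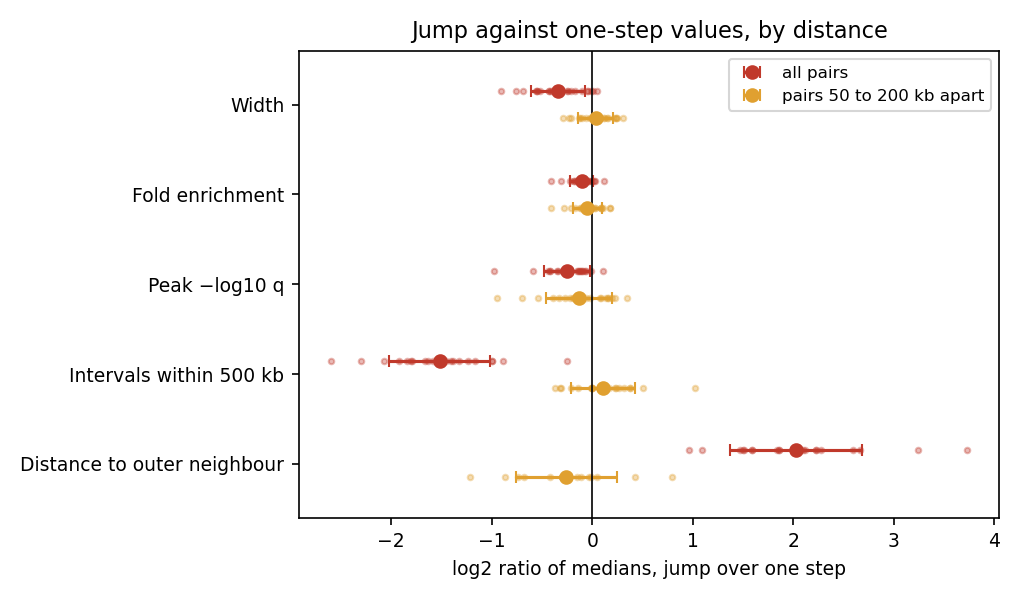
Log2 ratio of medians, jump over one step (x axis), for 5 measures, over all pairs (red, upper) and over pairs 50 to 200 kb apart (orange, lower). Small points are chromosomes and large points with bars are mean ± SD over chromosomes. For width the mean moves to 0.03 on the log2 scale at like distance, against −0.34 over all pairs, and for nearby intervals to 0.11, against −1.52.

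The earlier and the later member of a jump did not differ past the threshold in width or fold. At like distance they differed in the distance to their outer neighbours. That comparison and that range were both chosen after the data were examined, and the adjusted p-values do not cover the choice of range. Over all jumps the median log2 ratio of width, earlier over later member, was −0.03 ± 0.39 over chromosomes (mean ± SD, n = 21), with a 95% interval of −0.21 to 0.14 (permutation test, adjusted p = 0.927). The log2 ratio of fold was −0.0025 ± 0.158 (95% interval −0.0746 to 0.0696, permutation test, adjusted p = 0.995). Neither differed from one-step pairs past the threshold (differences of 0.0006 for width and 0.0035 for fold, permutation tests, adjusted p = 0.995 for both). Among pairs 50 to 200 kb apart the log2 ratio of fold in jumps was 0.053, with a 95% interval of 0.011 to 0.095, higher in the earlier member on 11 of 15 chromosomes (permutation test, p = 0.0189, adjusted p = 0.113). The distance to the outer neighbour had a median of 40.1 kb on the earlier side and 26.7 kb on the later side of jumps. For one-step pairs the same medians were 7.15 kb on the earlier and 6.59 kb on the later side. Over all jumps the log2 ratio of the 2 sides was 0.32 ± 0.79 and did not pass the test (permutation test over the added comparisons, adjusted p = 0.124). Among pairs 50 to 200 kb apart it was 0.86 ± 0.60, a ratio of 1.81, with the earlier side sparser on 13 of 15 chromosomes (permutation test, adjusted p = 8.4e-04). In one-step pairs of that range it was 0.17 ± 0.33. The difference of 0.69 between jumps and one-step pairs passed the test (permutation test, adjusted p = 0.00183) and pointed the same way on 13 of 15 chromosomes. Among pairs at most 100 kb apart the log2 ratio of the 2 sides in jumps was 0.92 (permutation test over 13 chromosomes, adjusted p = 6.3e-04), and without late or very late members it was 0.69 (16 chromosomes, permutation test, adjusted p = 0.00202). It was −0.02 when pairs were rebuilt from peaks whose −log10 q was 5 or more (permutation test, adjusted p = 0.932). Without each chromosome in turn, the value over all jumps ranged from 0.23 to 0.39. It passed only without chromosome 18 (0.39, permutation test with 2000 resamples, adjusted p = 0.042), and the adjusted p was up to 0.241 in the other runs. By pairing, the outer neighbour lay 22.03 kb away on the earlier and 13.2 kb on the later side for very early beside mid early, 39.9 and 24.9 kb for early beside mid late, and 59.8 and 38.4 kb for mid early beside late. For mid late beside very late it was the other way, with 99.5 kb on the earlier and 106 kb on the later side. These medians by pairing were not tested.

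Single intervals between 2 jumps were mostly earlier than their neighbours. There were 33 intervals that jumped away from both neighbours, and 25 of them (75.8%) were earlier than both, 7 were later than both and 1 lay between. Among 3171 single intervals that differ from both neighbours by 1 step, 1333 (42.0%) were earlier than both, 1220 later than both and 618 in between. Earlier and later are read from the classes that chose these intervals, so the shares are a description and were not tested. The 33 intervals had a median width of 309 bp and a median fold of 3.83, and 8 of them lay on chromosome X. None had 3 or more steps on both sides. The 3 with the highest fold lay in hg19 on chromosome 7, X and X. The interval at chr7:129302997-129303984 was very early between mid early neighbours 62.2 and 86.9 kb away, 988 bp wide and enriched 10.5-fold. That at chrX:13815280-13815663 was mid late between a very early neighbour 338 kb away and an early one 195 kb away, with a fold of 6.45. That at chrX:122696878-122697634 was early between mid late neighbours 379 and 251 kb away, with a fold of 6.43.

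The jumps of 4 or more steps were 5 pairs on 5 chromosomes, whose members had folds of 2.92 to 6.56. The only jump of 5 steps, from very early to very late, lay on chromosome 18 between chr18:57606022-57606483 and chr18:59000329-59001988 (hg19), 1394 kb apart. Its very early member had a fold of 2.95 and its very late member 3.83, and replicate 1 had 5 further peaks between them. The very late member was itself followed by a mid late interval 208 kb away, so it stood between 2 jumps. On chromosome 13 the very early interval chr13:76268660-76268866 (2.92-fold) faced the late interval chr13:76764303-76764558 (3.71-fold) across 495 kb in which replicate 1 had no further numbered peak. On chromosome 4 the very early interval chr4:171087753-171088195 (3.74-fold) and the late interval chr4:171726228-171726427 (6.56-fold) were 638 kb apart with 5 peaks skipped. On chromosome 9 the very late interval chr9:11618678-11618992 (5.06-fold) and the early interval chr9:13535414-13535673 (4.05-fold) were 1916 kb apart with 5 peaks skipped. On chromosome 7 the late interval chr7:145944810-145945348 (5.37-fold) and the very early interval chr7:148133422-148133671 (4.55-fold) were 2188 kb apart with 4 peaks skipped. Within 500 kb these 10 members had between 1 and 19 other intervals, below the median of 21 for all jump members.

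At the other extreme, 3 jumps spanned under 18 kb, all between mid early and very early. They lay on chromosome 9 between chr9:126281248-126281475 and chr9:126297367-126297825 (15.9 kb), on chromosome 1 between chr1:160766831-160767053 and chr1:160783552-160785090 (16.5 kb), and on chromosome 2 between chr2:26968419-26968702 and chr2:26986245-26988537 (17.5 kb). In all 3 the mid early member came first along the chromosome. These jumps stood in well-populated surroundings, with between 86 and 215 other intervals within 500 kb of each member, and their members belonged to runs of 4 to 19 intervals of the same class. The mid early member on chromosome 2 overlapped no listed peak and has no fold, and the others had folds of 3.06 to 4.54. The shortest jump of 3 steps, from very early to mid late, lay on chromosome 13 between chr13:98629333-98629648 and chr13:98708157-98708287 and spanned 78.5 kb. It was chosen after its values were seen.

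The 3 longest jumps spanned more than 3 Mb each and lay on chromosomes 6, X and 5. The longest was from the mid late interval chr6:58727043-58727332 to the very late interval chr6:62831771-62831975, 4104 kb apart. On chromosome X the late interval chrX:26766429-26767385 (11.0-fold) faced the mid early interval chrX:30671320-30671918 (4.49-fold) across 3904 kb with 7 replicate 1 peaks skipped. On chromosome 5 the very late interval chr5:45890085-45890643 faced the mid late interval chr5:49405836-49405949 across 3515 kb with no peak skipped. What the genome holds between these members (assembly gaps, centromeres, genes) was not used here.

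The most enriched member of a jump was the mid late interval chr11:6677187-6678021, at 256-fold, the last of a run of 25 mid late intervals. Its partner, the early interval chr11:6728153-6728357, lay 50.1 kb away and had a fold of 3.26. The next most enriched members were a very late interval at chr15:95210308-95210895 (47.9-fold, partner 188 kb away at 5.20-fold) and a mid late interval at chr20:6406702-6407051 (36.1-fold, partner 155 kb away at 3.29-fold). In each of these 3 pairs the strong peak faced a partner with a fold under 6. Such a fold was usual, since the upper quartile over all jump members was 5.47, and the pairs were picked for 1 strong member.

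Jumps were scattered over the genome and were most frequent on chromosome X. By windows of 1 Mb, 511 windows held 1 jump, 77 held 2, 11 held 3 and 1 held 4. The window with 4 was on chromosome 10 from 89000001 to 90000000, with 28 intervals. Of the windows with 3, the first by position lay on chromosome 4 from 79000001 to 80000000 with 10 intervals and from 176000001 to 177000000 with 6 intervals. Chromosome X held 62 of the 702 jumps (8.83%) but only 1.41% of all pairs, and 2.72% of its pairs jumped (62 of 2279, exact 95% binomial interval 2.09% to 3.47%), the highest share of the 23 chromosomes. Chromosomes 13 and 4 followed at 1.38% and 1.16%, and chromosome 22 had the lowest share at 0.0608% (4 of 6578). Neighbours are farther apart on X than on most chromosomes, with a median distance of 7.17 kb against 1.61 kb on chromosome 22 and 7.31 kb on chromosome 13.

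The share on chromosome X was also higher within ranges of distance. Of pairs more than 30 kb apart, 60 of 638 on X jumped (9.40%, exact 95% binomial interval 7.25% to 11.9%), against 619 of 17169 on the autosomes (3.61%, 3.33% to 3.90%), where single chromosomes ranged from 2.47% (chromosome 14) to 5.53% (chromosome 21). These pairs were not of like distance, with a median of 109 kb on X and medians of 42.6 kb (chromosome 19) to 84.2 kb (chromosome 13) on single autosomes. Narrower ranges even this out in part. From 30 to 100 kb the share was 4.53% on X (14 of 309, 2.50% to 7.49%) and 1.92% on the autosomes (1.68% to 2.18%). From 100 to 300 kb it was 12.9% on X (26 of 201, 8.63% to 18.4%) and 6.53% on the autosomes (5.79% to 7.34%). Beyond 300 kb the intervals overlapped, with 13.3% on X (7.49% to 21.4%) and 10.9% on the autosomes (8.995% to 13.0%) from 300 to 1000 kb. They also overlapped from 10 to 30 kb, with 0.531% on X (2 of 377, 0.0643% to 1.90%) and 0.0972% on the autosomes (0.0602% to 0.149%). Early beside mid late was the most common pairing on X, with 25 of its 62 jumps. Chromosome X was singled out after its values were seen and is 1 chromosome, so no test is given. On autosomes only, the comparisons of jumps with one-step pairs over all distances that passed the permutation test passed again. These were distance, width, fold, −log10 q, nearby intervals, the share near the outermost intervals, retention and outer distance. The settings restricted by distance were not run on autosomes alone.

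**Figure D5:**
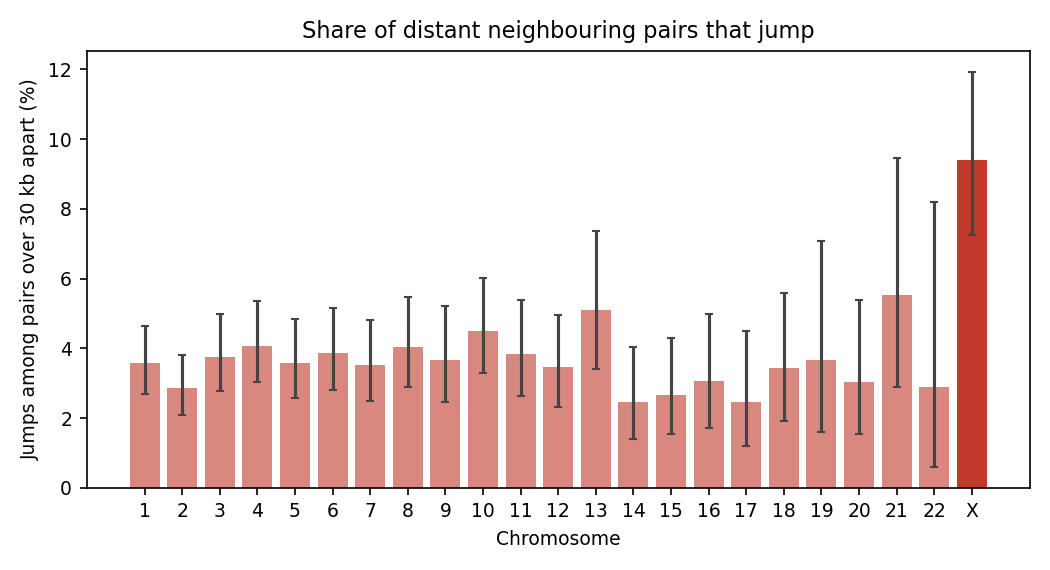
Share of neighbouring pairs more than 30 kb apart that jump (y axis, percent), by chromosome (x axis), with exact 95% binomial intervals. Chromosome X (dark) stands at 9.40%, and the autosomes lie between 2.47% and 5.53%; the pairs on X were also farther apart, with a median of 109 kb against 42.6 to 84.2 kb on the autosomes.

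At like distance the classes also differed in how often they bordered a jump. Of pairs 50 to 200 kb apart with a very early member, 11.2% were jumps (179 of 1599, exact 95% binomial interval 9.69% to 12.8%). The share was 5.63% with an early member, 6.28% with a mid early member, 5.51% with a mid late member and 6.37% with a very late member. It was lowest with a late member, at 1.80% (31 of 1725, 1.22% to 2.54%). Because the classes define a jump and their spans in timing are unknown, these shares are a description.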

How the data were processed

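Per the submitters' processing notes, BWA, MACS2 and the build hg19 were used; no source used here gives versions, parameters or a control library. The deposited broad peak list, without a header, gives a fold, a −log10 p, a −log10 q and a score for each whole peak of replicate 1, repeated where replicate 2 cuts it. The score that the authors deposited in the timing lists is a constant of 1000, and both scores and the −log10 p were not used. Members, lists and tests were chosen with earlier results of these data known.

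Each interval name was counted once (lowest start, highest end). An interval took the fold and q of the replicate 1 peak sharing most bases (at least 1 bp); 149 intervals, 3 of them jump members, had none. Distances run from end to start. Retention is the number of pairs divided by the replicate 1 peak numbers they span, which assumes consecutive numbering.

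Per chromosome with at least 10 pairs (or intervals) of both kinds, medians at jumps and one-step pairs were compared as log2 ratios or differences in points (for the number of nearby intervals, 1 was added to both medians). Their mean was tested by two-sided sign flips over chromosomes (100000 resamples), adjusted by the Benjamini-Hochberg method over 12 comparisons, and separately over 3 added ones. Chromosomes are not biological replicates. The 95% intervals of ratios and differences are t intervals over chromosomes. Only the width comparison was tested on simulated data, with widths shuffled within chromosomes. The shuffling removes any relation of width to distance or class, and no other measure was simulated. The regions named are those with 4 or more steps, the 3 shortest and 3 longest jumps, the 3 most enriched members, the 3 windows with most jumps and the 3 most enriched single intervals between 2 jumps. GC content, G-quadruplex motifs and sequences were planned and not run, since no genome of the build hg19 was used here. Calculations ran in Python 3.11.15 with scipy 1.17.1, pandas 2.3.3 and numpy 2.4.6, and figures were drawn with matplotlib 3.10.9.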

Additional observations from a re-analysis of the deposited data

How the results depend on the processing

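No paired analysis was possible because the 2 libraries form 1 group and enter as 1 intersected set. Neither library could be left out for the same reason, and GC content and motifs were not run. Values are log2 ratios or percentage points, jump minus one-step, or earlier over later member, and the cause of the changes below was not tested. Distance, width, fold, −log10 q, nearby intervals, chromosome ends and retention kept their direction and passed in each of the 7 alternatives fixed at the outset (6 for chromosome ends), except chromosome ends at distances of at most 100 kb (−4.02). They also did so without each chromosome in turn, where width ranged from −0.36 to −0.31 and distance from 2.59 to 2.70. The run without chromosome X is the same comparison as the autosomes alone. Merging same-class intervals within 100 bp left the numbers of pairs and members unchanged, so that alternative hardly differs from the main setting. Relative to the class median of the chromosome, width and fold passed too. Among pairs 50 to 200 kb apart the sign turned for width (0.034), nearby intervals (0.11), outermost intervals (1.47), shared bases (−0.768) and outer distance (−0.26). In that range fold (−0.048), −log10 q (−0.133) and retention (−0.300) no longer passed.

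The log2 ratios of earlier over later member lay near 0, passed nowhere for width or fold, and changed sign in several settings. For width the ratio became 0.0076 at a −log10 q of at least 5, 0.051 without late or very late members and 0.0036 at 50 to 200 kb. For fold it became 0.032 at a −log10 q of at least 5, 0.0528 at widths of at least 200 bp, 0.0365 at up to 100 kb, 0.0529 without late or very late members and 0.053 at 50 to 200 kb. The difference from one-step pairs in the width ratio became −0.020 at widths of at least 200 bp, −0.015 on autosomes and −0.036 without the first and last 5 Mb, where that in the fold ratio became −0.0081. At a −log10 q of at least 5 the outer distance ratio became −0.019 and its difference from one-step pairs −0.156. Without each chromosome in turn, the width ratio ranged from −0.060 to 0.017, the fold ratio from −0.013 to 0.024, and their differences from one-step pairs from −0.023 to 0.056 and from −0.0062 to 0.030.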
